A study of Mus musculus with 24 samples.

Results

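The genes described here encode voltage-gated potassium channels. They are the genes whose symbol is Kcn followed by 1 of the letters a, b, c, d, g, h, q, s or v and a number, taken from array probe sets that the platform annotation pairs with a single gene symbol. In all, 30 genes met this rule, through 63 probe sets, out of 18193 genes with such a probe set in the whole data set. Each gene was represented by its probe set with the highest mean over all 24 arrays. A probe set counted as detected, or kept, if its mean value was at least 4 over the 12 arrays of striatum or over the 12 arrays of cerebellum. By this filter 21 of the 30 genes were kept, through 40 probe sets, and 9 were not detected, among 10766 genes kept in all.

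Total RNA came from striatum and cerebellum of mice that carry an expanded CAG repeat in both copies of the mouse Huntington's disease gene (HdhQ111/HdhQ111, called Q111 here) and of wild-type mice (Hdh+/Hdh+, genotype Q7/Q7). The 4 groups were Q111 striatum, wild-type striatum, Q111 cerebellum and wild-type cerebellum, with 6 Affymetrix MG430 2.0 arrays each, and the labels number the arrays of a group as biological replicates 1 to 6. The labels give every sample the same age range of 3 to 10 weeks, so an effect of age within a group cannot be separated, and they give neither the sex of the mice nor whether both tissues of 1 mouse were used. The mutation is a knock-in at the gene's own locus and is therefore present in every cell type of both tissues, and no separate mouse is named for an array. The p-values therefore reflect the variation among these arrays, part of which may be technical.

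The values are GCRMA values, which summarise the probes of a probe set after background correction, and they were read as log2 values, so that a difference of 1 is a 2-fold change. Array medians lay between 3.38 and 3.51, and arrays of the same group correlated with r between 0.983 and 0.993 over the kept probe sets. The lowest value on an array was 0.36 to 0.38 in striatum and -0.77 to -0.66 in cerebellum, and the sources used here do not say if the tissues were normalised jointly. The tissue labels fitted the marker genes: the 10 kept markers of striatal projection neurons averaged 12.06 in Q111 striatum and 12.24 in wild-type striatum, against 5.28 in Q111 cerebellum and 5.34 in wild-type cerebellum. The 9 kept markers of granule neurons, the most numerous neurons of cerebellum, averaged 4.58 in Q111 striatum and 4.56 in wild-type striatum, against 12.05 in Q111 cerebellum and 12.04 in wild-type cerebellum. In tissue RNA, fewer cells of a type and less RNA per cell cannot be told apart.

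Voltage-gated potassium channels are assemblies of pore-forming subunits that open when the membrane is depolarised and let potassium leave the cell, which ends the action potential and sets how fast a neuron can fire again. Subunits combine within families: the Kcna genes encode the Kv1 (Shaker) family of axonal and low-threshold channels, Kcnc the Kv3 family of fast-spiking neurons, Kcnd the Kv4 family of somatodendritic A-type currents, Kcnq the Kv7 family of the M-current, and Kcnh the ether-a-go-go related channels. The Kcng, Kcns and Kcnv genes encode silent subunits, which form no channel alone and modify the Kv2 family when they join it. In striatum, such currents delay the first spike of projection neurons, whose negative resting potential is set mainly by inwardly rectifying channels of another gene family.

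Promoters are shown first for the 4 members on which the results turn: Kcna5, the 1 member whose representing probe set passed the threshold between genotypes, Kcna4 and Kcnc1, which had the largest tissue differences each way among members kept in both tissues, and Kcng4, the only member kept in cerebellum alone. The RefSeq promoter table of mouse build GRCm38.p6 held 19 entries for 15 of the 21 kept genes, 4 of them entries of Kcnc2, of which 3 overlap one another. The 250 bases before the annotated start are printed 5′ to 3′ on the gene's strand, in lower case, with matches on either strand in capitals. The motifs searched were the TATA box core TATAAA, the CCAAT box core CCAAT, the GC box core GGGCGG and the half-site TGACG of the cyclic AMP response element. The windows lie at chr6:126535556-126535805 on the minus strand for Kcna5, at chr2:107290339-107290588 on the plus strand for Kcna4, at chr7:46396218-46396467 on the plus strand for Kcnc1 and at chr8:119635681-119635930 on the minus strand for Kcng4.
Kcna5: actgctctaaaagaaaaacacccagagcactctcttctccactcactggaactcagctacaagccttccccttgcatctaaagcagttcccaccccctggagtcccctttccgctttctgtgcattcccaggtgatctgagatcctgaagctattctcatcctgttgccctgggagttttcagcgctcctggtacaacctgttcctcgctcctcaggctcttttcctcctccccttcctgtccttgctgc
Kcna4: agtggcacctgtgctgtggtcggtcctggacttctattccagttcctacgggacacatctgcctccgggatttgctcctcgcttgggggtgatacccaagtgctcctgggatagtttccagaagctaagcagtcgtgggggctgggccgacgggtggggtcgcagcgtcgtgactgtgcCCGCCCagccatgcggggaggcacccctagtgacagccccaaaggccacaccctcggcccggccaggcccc
Kcnc1: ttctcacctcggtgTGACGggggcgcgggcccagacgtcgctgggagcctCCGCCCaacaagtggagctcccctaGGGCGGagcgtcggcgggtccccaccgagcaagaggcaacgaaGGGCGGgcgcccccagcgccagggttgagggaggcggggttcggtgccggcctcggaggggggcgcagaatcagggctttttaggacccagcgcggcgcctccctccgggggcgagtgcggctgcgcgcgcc
Kcng4: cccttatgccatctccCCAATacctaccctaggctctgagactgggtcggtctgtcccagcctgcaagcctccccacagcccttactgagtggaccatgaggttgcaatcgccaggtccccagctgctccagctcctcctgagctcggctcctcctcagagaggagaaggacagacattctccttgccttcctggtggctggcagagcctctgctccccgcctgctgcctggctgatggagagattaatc

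The Kcna5 window, with 53.2% G+C, held none of the 4 motifs. The Kcna4 window had 65.2% G+C and 1 GGGCGG, read here on the opposite strand as its complement. The Kcnc1 window was the richest in G+C of the 19, at 74.4%, and held 3 GGGCGG and 1 TGACG, while the Kcng4 window had 60.4% G+C and 1 CCAAT. Over all 19 entries the median G+C was 60.8%, with a range of 44.4% to 74.4%, against a median of 52.4% over the 32851 promoters of the table. GGGCGG stood in 8 of the 19 member promoters (42.1%) and in 32.7% of all promoters, CCAAT in 6 (31.6%) and in 33.8%, TGACG in 4 (21.1%) and in 17.8%, and TATAAA in 0 and in 12.4%. These matches describe letters in a window and nothing about binding.

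In striatum, 1 of the 21 kept channel genes differed between genotypes at an adjusted p under 0.05: Kcna5, a Kv1 subunit best known for a fast repolarising current of atrial heart muscle, rose in Q111 mice. That is 4.76% of the members, against 2.78% of all 10766 genes (0.873% higher and 1.9% lower). At an unadjusted p under 0.05 there were 2 members, the other being the A-type subunit gene Kcnd3. The share of all genes at that unadjusted level is not given, so such counts have no baseline here or below. The differences were small: their median was 0.08 against -0.03 over all genes, 17 of 21 lay above 0, and the median size was 0.11 against 0.10 over all genes. Over all kept probe sets 173 rose and 422 fell, and after quantile normalisation of the 24 arrays these were 310 and 332, with Kcna5 the member called under either scaling.

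Kcna5 values on the Q111 striatum arrays had a lowest of 7.08, a median of 7.72 and a highest of 8.30, against 6.24, 6.88 and 7.37 on the wild-type striatum arrays. All 6 Q111 arrays lay above the wild-type mean, but the groups overlapped, since the lowest Q111 arrays fell within the wild-type range. The means (± SD, n = 6 each) were 7.65 ± 0.46 on Q111 arrays, against 6.85 ± 0.38 on wild-type arrays. They differed by 0.81 (SE 0.16, 95% CI 0.47 to 1.15) or 1.75-fold, with an adjusted p of 0.0112 by limma's moderated test. The call rests on the spread shared by all 4 groups, which includes cerebellar arrays at background, with SDs of only 0.08 and 0.05. The SE and the interval are therefore narrower than the striatal arrays alone would give. With only the striatum arrays in the fit the adjusted p was 0.0726. In cerebellum the probe set was not detected, at 1.64 ± 0.08 in Q111 and 1.64 ± 0.05 in wild type, and the difference between the tissues' genotype effects was 0.81 (adjusted p = 0.157).

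**Figure D1:**
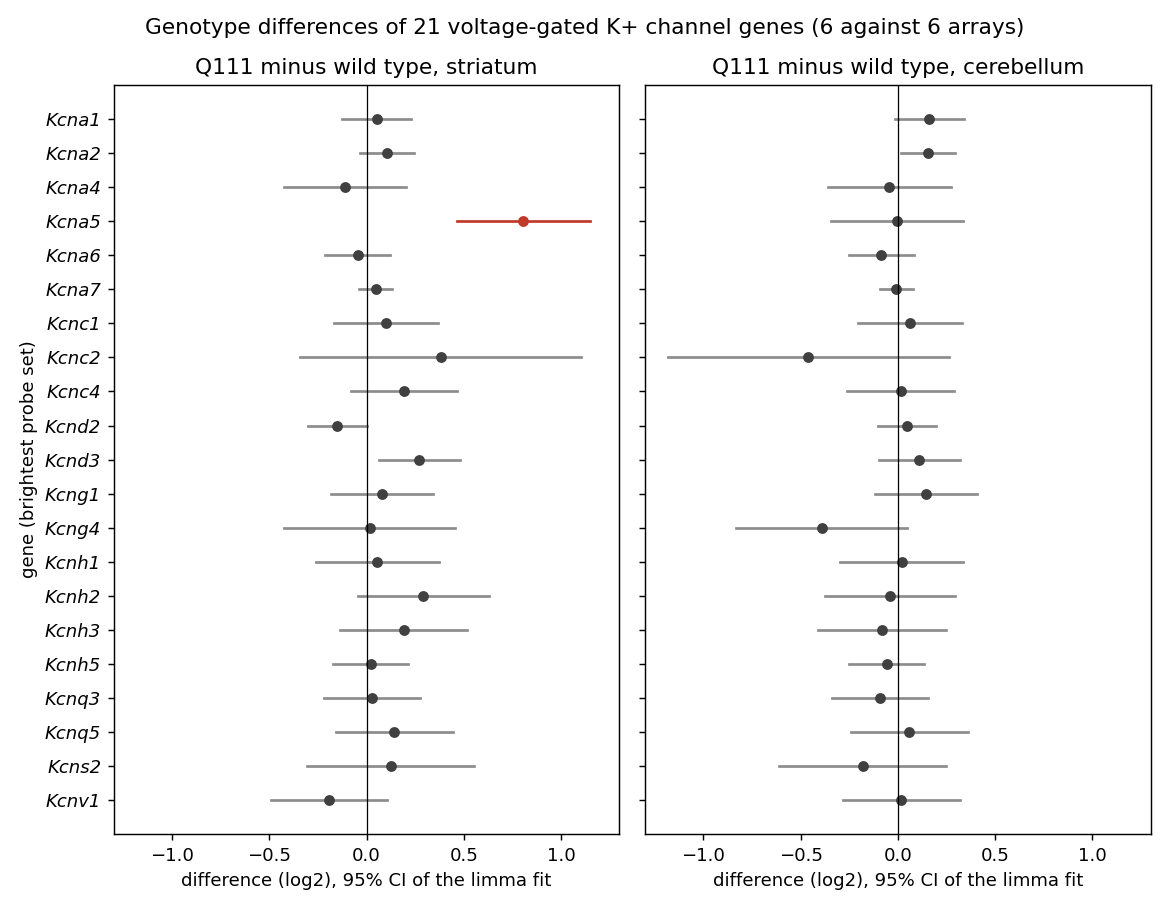
Difference between Q111 and wild type (x axis, log2) for each of the 21 kept channel genes (rows), in striatum on the left and cerebellum on the right. Points are differences of means of 6 against 6 arrays, lines are 95% confidence intervals of the limma fit, and red marks an adjusted p under 0.05, which only Kcna5 in striatum reached, at 0.81. The intervals use the spread of all 4 groups, which for Kcna5 includes cerebellar arrays at background.

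The arrays fall into 2 sets by replicate number. In striatum the means of numbers 1 to 3 and of numbers 4 to 6, each over both genotypes, differed with an SD of only 0.0534 over probe sets, against 0.211 for the genotype means, and in cerebellum the SDs were 0.0512 and 0.179. The labels name no step that sets these means equal, so genotype differences were also taken within each set of 3 against 3 arrays. Kcna5 was higher in Q111 striatum in both sets, by 0.92 in numbers 1 to 3 (adjusted p = 0.0654) and by 0.69 in numbers 4 to 6 (adjusted p = 0.178), and with the set as a term in the model its adjusted p was 0.0236. Of the 21 members, 9 (42.9%) had the same sign in both sets in striatum, against 50.5% of all genes.

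Some markers of other cells also differed between the striatum groups, where 2.78% of all genes passed the threshold. Of the 8 kept markers of cortical projection neurons, 2 passed, both higher in Q111 (Neurod6 and Fezf2). All 8 had differences above 0, with a median of 0.51 against -0.03 over all genes. The list's mean ran from a lowest of 7.08 to a highest of 8.12 on Q111 arrays, against 6.79 and 7.45 on wild-type arrays. Of the 8 microglia markers, 3 rose (the complement genes C1qa, C1qb and C1qc) and Aif1 fell, with list means of 7.52 to 7.88 in Q111 and 7.29 to 7.62 in wild type. Only 4 of these 8 markers had a difference above 0, and their median difference was 0.00, so the microglia list did not rise as a whole. Of the 6 kept endothelial and mural markers, 2 fell (Cldn5, a tight-junction protein, and Rgs5, a pericyte marker), with list means of 6.69 to 6.93 in Q111 and 6.93 to 7.29 in wild type. No gene of the 9 kept oligodendrocyte markers passed, but 8 had negative differences and 4 an unadjusted p under 0.05, with list means of 10.91 to 11.53 in Q111 and 11.39 to 11.62 in wild type. Acta2, the actin of vascular smooth muscle, where Kcna5 is also known to be expressed, had 7.18 in Q111 and 7.11 in wild type (difference 0.07, adjusted p = 0.773). None of these kept markers was near 0 in striatum, Pecam1, Kdr, Tagln and Myh11 were below the filter, and the part of other cell types in the Kcna5 difference was not tested. Of the 8 kept Purkinje cell markers, 1 also passed in striatum, lower in Q111. In that list 2 of 8 differences lay above 0, and the largest in size was a rise of 2.14 that did not pass.

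**Figure D2:**
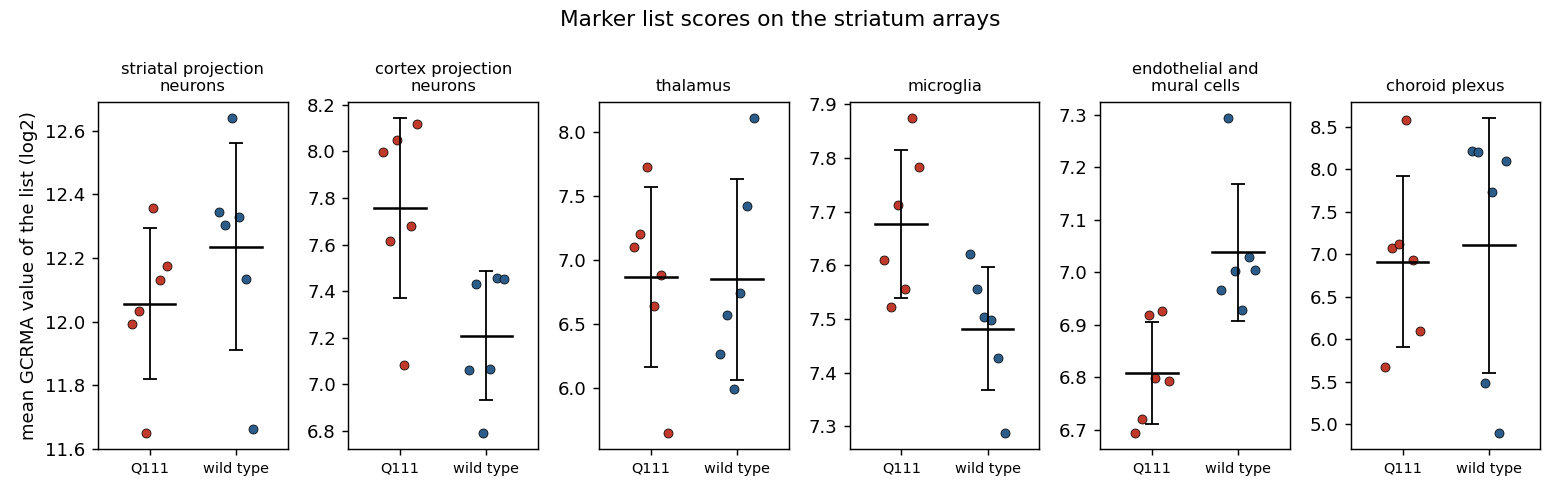
Mean value of each marker list (y axes, log2) on the 6 Q111 and 6 wild-type striatum arrays, shown as points in replicate order from left to right with the mean and SD. The y axes differ between panels and do not start at 0; the cortical list was higher in Q111 at 7.76 against 7.21 in wild type, and the choroid plexus list spread widest within groups, between 4.90 and 8.58.

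Among the other Kv1 genes, no representing probe set passed the threshold in striatum. Kcna1 and Kcna2, the axonal subunits that flank the nodes of myelinated fibres, stood at 11.29 ± 0.17 and 9.99 ± 0.11 in Q111, against 11.23 ± 0.20 and 9.89 ± 0.12 in wild type. Kcna6 had 8.31 ± 0.19 in Q111 and 8.36 ± 0.13 in wild type, and Kcna7, a subunit known from muscle, had 6.34 ± 0.04 in Q111, against 6.29 ± 0.05 in wild type. On these representing probe sets the 95% intervals of the differences were -0.12 to 0.23 for Kcna1, -0.04 to 0.24 for Kcna2, -0.21 to 0.12 for Kcna6 and -0.04 to 0.13 for Kcna7. Other kept probe sets spread wider without passing: for Kcna1 they gave 0.17 (adjusted p = 0.329) and -0.35 (adjusted p = 0.113), and for Kcna6 0.42 (adjusted p = 0.462) and 0.09 (adjusted p = 0.807). Kcna2 had 0.18 and 0.16 on its other 2 kept probe sets. Kcna1, Kcna5 and Kcna6 all lie on chromosome 6, and of the 3 only Kcna5 passed.

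Kcna4, the fast-inactivating subunit of the Kv1 family, gave different answers on its 2 probe sets. On the brighter one, 1438613_at, Q111 striatum had 8.60 ± 0.29 and wild-type striatum 8.71 ± 0.32, a difference of -0.11 (95% CI -0.43 to 0.21, adjusted p = 0.756). On the other, 1422255_at, the Q111 arrays had a lowest of 7.64, a median of 7.79 and a highest of 7.96, against 8.10, 8.42 and 8.66 on the wild-type arrays. These groups did not overlap, as was the case for 2.39% of all kept probe sets, and the difference was -0.63 (SE 0.12, adjusted p = 0.00536). It was -0.59 within numbers 1 to 3 (adjusted p = 0.105) and -0.67 within numbers 4 to 6 (adjusted p = 0.0836). Of all kept probe sets, 2.87% passed in striatum.

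The silent subunit gene Kcnv1 also gave different answers on its 3 probe sets, and here, unlike for Kcna4, the signs differed. The representing one, 1453273_at, had 7.77 ± 0.37 in Q111 striatum and 7.96 ± 0.37 in wild-type striatum (difference -0.19, adjusted p = 0.505), with differences of 0.11 in numbers 1 to 3 and -0.50 in numbers 4 to 6. Probe set 1429741_at had 6.35 ± 0.36 in Q111 and 6.67 ± 0.35 in wild type (difference -0.31, adjusted p = 0.276). On 1439333_at, however, Q111 arrays had a lowest of 7.13, a median of 7.37 and a highest of 7.78, against 6.38, 6.78 and 6.90 in wild type. There the groups did not overlap (against the same 2.39% of all kept probe sets). The difference was 0.72 (SE 0.10, adjusted p = 3.1e-04 by limma's moderated test), 0.80 within numbers 1 to 3 and 0.64 within numbers 4 to 6. This SE also rests on the spread shared by all 4 groups. Kcnv1 was below the detection level in cerebellum, where its representing probe set had SDs of only 0.04 and 0.03. An adjusted p from the striatum arrays alone is not given here for 1439333_at. The direction for Kcnv1 in Q111 striatum therefore depends on the probe set, and the transcripts that each detects are not given in the files.

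**Figure D3:**
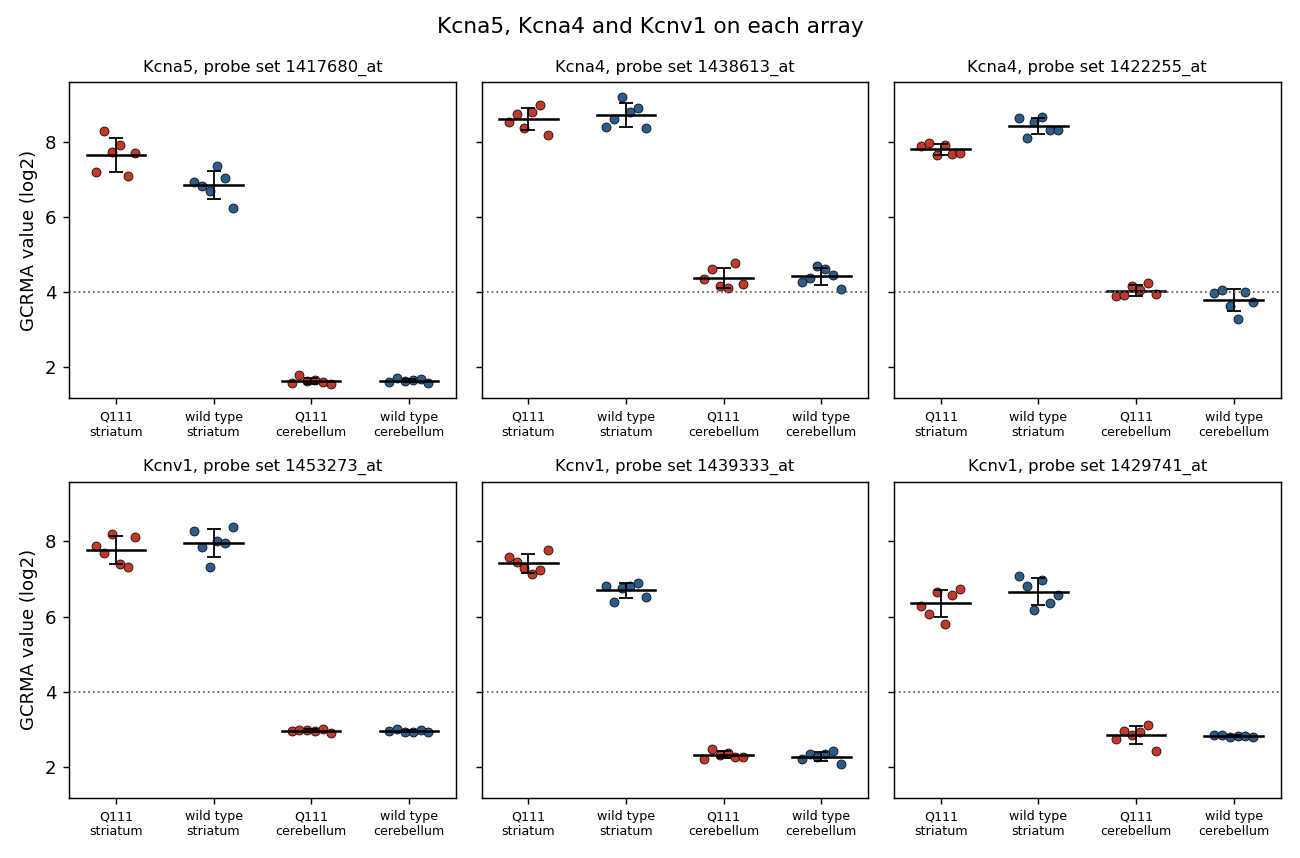
GCRMA value (y axis, log2) of Kcna5, of both Kcna4 probe sets and of the 3 Kcnv1 probe sets on every array, as points by group with the mean and SD; the dotted line marks the detection level of 4. In striatum, Q111 and wild-type arrays separate on Kcna4 1422255_at (lower in Q111) and Kcnv1 1439333_at (higher in Q111) and overlap on the other 4 probe sets.

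Of the 12 members with several kept probe sets, 5 (41.7%) had striatal genotype differences of opposite sign among them, against 50% of such genes in all. Counting a member as called if any kept probe set passed gave 3 in striatum, Kcna5 and Kcnv1 higher and Kcna4 lower, against 4.46% of all genes.

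In the Kv3 family, which lets neurons fire at high rates, no gene passed in striatum. Kcnc2, a subunit of fast-spiking interneurons and thalamic neurons, had a lowest of 8.28, a median of 9.12 and a highest of 9.67 on Q111 arrays, against 7.83, 8.43 and 9.55 on wild-type arrays. The groups overlapped almost fully, and the difference of 0.38 (95% CI -0.34 to 1.11, adjusted p = 0.605) was 1.25 within numbers 1 to 3 and -0.49 within numbers 4 to 6. The mean of 8 kept thalamus markers moved alongside: it was 7.34 in Q111 and 6.27 in wild type within numbers 1 to 3, and 6.39 in Q111 and 7.42 in wild type within numbers 4 to 6. The interneuron list (5 kept of 8) did so less far, at 8.88 in Q111 and 8.60 in wild type within numbers 1 to 3, and 8.52 in Q111 and 8.94 in wild type within numbers 4 to 6, and the part of either list was not tested.

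Kcnc4 had a lowest of 6.16, a median of 6.42 and a highest of 6.56 in Q111 striatum, against 5.77, 6.23 and 6.56 in wild type, with overlapping groups and a difference of 0.19 (adjusted p = 0.463). Its representing probe set carries a suffix that marks probes shared among several transcripts. Kcnc1 had 7.97 ± 0.27 in Q111 and 7.87 ± 0.27 in wild type (difference 0.10, adjusted p = 0.736).

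Of the Kv4 genes, Kcnd3 came closest to the threshold. Its Q111 striatum arrays had a lowest of 7.82, a median of 8.04 and a highest of 8.18, against 7.61, 7.70 and 8.07 in wild type. All 6 Q111 arrays lay above the wild-type mean with some overlap, and the difference of 0.27 (95% CI 0.06 to 0.48) had an adjusted p of 0.138. Kcnd2, the main A-type subunit of many projection neurons, had 10.79 ± 0.10 in Q111 and 10.94 ± 0.12 in wild type (difference -0.15, adjusted p = 0.265), with all 6 Q111 arrays below the wild-type mean.

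The Kv7 genes Kcnq3 and Kcnq5, whose channels carry the M-current that muscarinic receptors close, differed little. Kcnq3 had 10.63 ± 0.19 in Q111 striatum and 10.60 ± 0.18 in wild type, and Kcnq5 had 10.04 ± 0.20 in Q111 and 9.90 ± 0.30 in wild type. Their differences were 0.03 (95% CI -0.22 to 0.27) and 0.14 (95% CI -0.16 to 0.44).

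Of the Kcnh genes, Kcnh2, which encodes the ERG channel of cardiac repolarisation, had the largest difference. Its Q111 striatum arrays had a lowest of 5.73, a median of 6.52 and a highest of 6.81, against 5.70, 6.15 and 6.46 in wild type, and the overlapping groups gave 0.29 (95% CI -0.04 to 0.63, adjusted p = 0.339). Kcnh1 had 8.07 ± 0.27 in Q111 and 8.01 ± 0.16 in wild type. Kcnh3, whose representing probe set carries a suffix that marks probes shared with other transcripts, had 8.13 ± 0.17 in Q111 and 7.94 ± 0.37 in wild type. Kcnh5, the member just inside the detection level, had 4.36 ± 0.12 in Q111 striatum and 4.34 ± 0.26 in wild-type striatum.

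Of the silent subunits besides Kcnv1, Kcns2 had 8.48 ± 0.27 in Q111 striatum and 8.36 ± 0.36 in wild type, and Kcng1 had 5.82 ± 0.29 in Q111 and 5.73 ± 0.19 in wild type. Kcng4 was below the detection level in striatum, at 3.54 ± 0.52 in Q111 and 3.52 ± 0.45 in wild type. Kcnf1, a silent subunit gene whose symbol the rule leaves out, had 8.13 ± 0.25 in Q111 striatum and 8.10 ± 0.18 in wild type (adjusted p = 0.929) and was not detected in cerebellum.

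In cerebellum, no channel gene passed the threshold between genotypes in limma's test, against 0.446% of all genes, and 1 had an unadjusted p under 0.05, Kcna2. The median difference was 0.00 against -0.05 over all genes, and 10 of 21 members lay above 0. Over all kept probe sets 20 rose and 75 fell, or 45 and 39 after quantile normalisation.

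The largest difference in cerebellum was that of Kcnc2, with a lowest of 4.09, a median of 5.08 and a highest of 5.77 on Q111 arrays, against 4.46, 5.41 and 6.24 on wild-type arrays. The groups overlapped over most of their range, and the difference was -0.46 (95% CI -1.18 to 0.26, adjusted p = 0.585). Kcng4, the silent subunit detected in cerebellum alone, had a lowest of 9.21, a median of 9.41 and a highest of 9.87 in Q111, against 9.51, 9.94 and 10.10 in wild type. Here 5 of 6 Q111 arrays lay below the wild-type mean, and the difference was -0.39 (95% CI -0.83 to 0.05, adjusted p = 0.417), or -0.36 and -0.42 within the lower and the higher replicate numbers.

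Kcns2 had a lowest of 3.45, a median of 4.35 and a highest of 4.80 in Q111 cerebellum, against 3.99, 4.43 and 4.78 in wild type, close to the detection level. Its difference was -0.18 (adjusted p = 0.748). The Kv1 genes of the cerebellar basket cell terminal, Kcna1 and Kcna2, were both slightly higher in Q111 cerebellum on all 6 arrays than the wild-type mean. Kcna1 had a lowest of 11.73, a median of 11.84 and a highest of 11.94 in Q111, against 11.55, 11.66 and 11.81 in wild type, a difference of 0.16 (95% CI -0.01 to 0.34, adjusted p = 0.406). Kcna2 had a lowest of 10.67, a median of 10.77 and a highest of 10.81 in Q111, against 10.41, 10.58 and 10.79 in wild type, a difference of 0.16 (95% CI 0.02 to 0.30, adjusted p = 0.296). The other probe sets of these genes did not share the sign throughout, with -0.05 and 0.02 for Kcna1 and 0.00 and 0.21 for Kcna2. Kcng1 was below the detection level in cerebellum, with a lowest of 2.94, a median of 3.15 and a highest of 3.32 in Q111, against 2.59, 3.04 and 3.31 in wild type.

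The remaining members kept in cerebellum differed by less than 0.12. Kcnc1, the Kv3 subunit of granule cells, had 11.81 ± 0.14 in Q111 and 11.75 ± 0.23 in wild type, and Kcnc4 had 8.01 ± 0.28 in Q111, against 7.99 ± 0.14 in wild type. The Kv4 genes stood at 11.56 ± 0.12 in Q111 and 11.52 ± 0.13 in wild type for Kcnd2, and at 9.22 ± 0.16 in Q111 and 9.11 ± 0.22 in wild type for Kcnd3. Kcna4 had 4.37 ± 0.27 in Q111 and 4.41 ± 0.22 in wild type. Kcna6 had 7.96 ± 0.11 in Q111 and 8.04 ± 0.10 in wild type, and Kcna7 had 6.20 ± 0.02 in Q111 and 6.21 ± 0.04 in wild type. Among the Kcnh and Kcnq genes, Kcnh1 had 8.10 ± 0.30 in Q111 and 8.08 ± 0.34 in wild type, and Kcnh2 had 6.59 ± 0.30 in Q111 and 6.63 ± 0.21 in wild type. Kcnh3 had 4.34 ± 0.31 in Q111 and 4.42 ± 0.27 in wild type, and Kcnq3 had 7.02 ± 0.23 in Q111 and 7.12 ± 0.24 in wild type.

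The test of whether the genotype difference itself differed between tissues called no member on its representing probe set, against 0.0836% of all genes, with 1 at an unadjusted p under 0.05. The Kcna4 probe set 1422255_at was the only member probe set that passed, against 0.0868% of all kept probe sets, and with any kept probe set counting 0.158% of all genes passed. It fell by 0.63 in Q111 striatum and had 4.04 ± 0.14 in Q111 cerebellum and 3.77 ± 0.29 in wild-type cerebellum, next to the detection level, giving a difference between the differences of -0.89 (adjusted p = 0.0424). With the replicate number as a block the adjusted p was 0.0712, and with the number set in the model it was 0.0893, so the call does not hold under either. It was also lost in 11 of 24 fits that left out 1 array, with adjusted p between 0.0141 and 0.0839. The Kcnv1 probe set 1439333_at had 0.67 in the same test (adjusted p = 0.0674).

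Between the tissues, the channel genes differed far more than between genotypes. Of the 15 members kept in both tissues, 13 (86.7%) passed the threshold between striatum and cerebellum of wild-type mice, 6 higher and 7 lower in striatum, against 72% of all genes kept in both tissues (30.4% higher and 41.6% lower). In Q111 mice the count was 13 as well, 7 higher and 6 lower, against 71.8% of all such genes (31.2% higher and 40.6% lower). With the 6 members kept in 1 tissue added, 19 of 21 passed in wild type, against 73.8% of all genes, and 19 in Q111, against 73.6%, but the filter itself required a difference of those 6.

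Higher in striatum were the A-type subunit Kcna4, the silent subunit Kcns2, the Kcnh gene Kcnh3, the M-current subunit Kcnq3, the Kv3 subunit Kcnc2 and, by little, Kcna6. Kcna4 had a lowest of 8.37, a median of 8.70 and a highest of 9.20 in wild-type striatum, against 4.08, 4.41 and 4.69 in wild-type cerebellum, a difference of 4.30 (SE 0.15, adjusted p = 8.8e-18) or 19.7-fold. Kcns2 had 8.01, 8.28 and 9.05 in wild-type striatum, against 3.99, 4.43 and 4.78 in wild-type cerebellum, a difference of 3.99 (adjusted p = 1.6e-14). The striatal and cerebellar arrays of both genes lay far apart. Kcnh3 had 7.26, 7.99 and 8.39 in wild-type striatum, against 4.19, 4.35 and 4.83 in wild-type cerebellum, a difference of 3.51 (adjusted p = 1.1e-15) on a probe set with shared probes. Kcnq3 was detected well in both tissues, at 10.34, 10.66 and 10.81 in wild-type striatum, against 6.87, 7.02 and 7.50 in wild-type cerebellum, a difference of 3.49 (adjusted p = 4.3e-18). Kcnc2 was the most variable of these, at 7.83, 8.43 and 9.55 in wild-type striatum, against 4.46, 5.41 and 6.24 in wild-type cerebellum, a difference of 3.25 (SE 0.35, adjusted p = 1.2e-08). The tissues did not overlap for these 5 genes. Of the 15 members kept in both tissues, 11 (73.3%) had no overlap in wild type, against 52.6% of all such genes.

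Lower in striatum were Kcnc1 and Kcnc4 of the Kv3 family, both detected Kv4 genes (Kcnd2 and Kcnd3), Kcna1, Kcna2 and Kcnh2. Kcnc1 had a lowest of 7.54, a median of 7.86 and a highest of 8.28 in wild-type striatum, against 11.50, 11.72 and 12.08 in wild-type cerebellum, a difference of -3.88 (SE 0.13, adjusted p = 2.7e-18), or 14.7-fold lower in striatum. Kcnc4 had 5.77, 6.23 and 6.56 in wild-type striatum, against 7.82, 8.01 and 8.15 in wild-type cerebellum, a difference of -1.78 (adjusted p = 1.5e-11) on a probe set with shared probes. Kv3 subunits thus went both ways, with Kcnc2 higher and the other 2 lower in striatum. Kcnd3 had 7.61, 7.70 and 8.07 in wild-type striatum, against 8.89, 9.08 and 9.45 in wild-type cerebellum, a difference of -1.34 (adjusted p = 1.9e-11). Kcna2 had 9.74, 9.88 and 10.05 in wild-type striatum, against 10.41, 10.58 and 10.79 in wild-type cerebellum, a difference of -0.70 (adjusted p = 1.6e-09). Kcnd2 had 10.79, 10.92 and 11.09 in wild-type striatum, against 11.31, 11.50 and 11.67 in wild-type cerebellum, a difference of -0.58 (adjusted p = 1.7e-07). These 5 genes are also among the 11 without overlap, although the last differences were small. Kcnh2 differed by -0.49 in wild type (adjusted p = 0.0095) and by -0.16 in Q111 (adjusted p = 0.392), and the test of the difference between genotypes gave 0.33 with an adjusted p of 0.671. Kcna1 differed by -0.44 in wild type (adjusted p = 6.8e-05).

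Kcna6, Kcna7 and Kcnh1 lay near equality. Kcna6 was 0.32 higher in wild-type striatum on its representing probe set (adjusted p = 0.0013), but lower by 1.05 on 1421568_at, and it was the only 1 of 12 members with several kept probe sets whose tissue differences had opposite signs (8.33%, against 23.7% of such genes). Kcna7 differed by 0.08 in wild type (adjusted p = 0.0761) and by 0.14 in Q111 (adjusted p = 0.00453), so it is among the members counted as higher in Q111 only. Its group SDs were 0.02 to 0.05, close to those of the undetected Kcnd1 at 0.02 to 0.03. Whether so flat a signal reflects expression was not tested. Kcnh1 differed by -0.06 in wild type (95% CI -0.38 to 0.25) and by -0.03 in Q111.

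**Figure D4:**
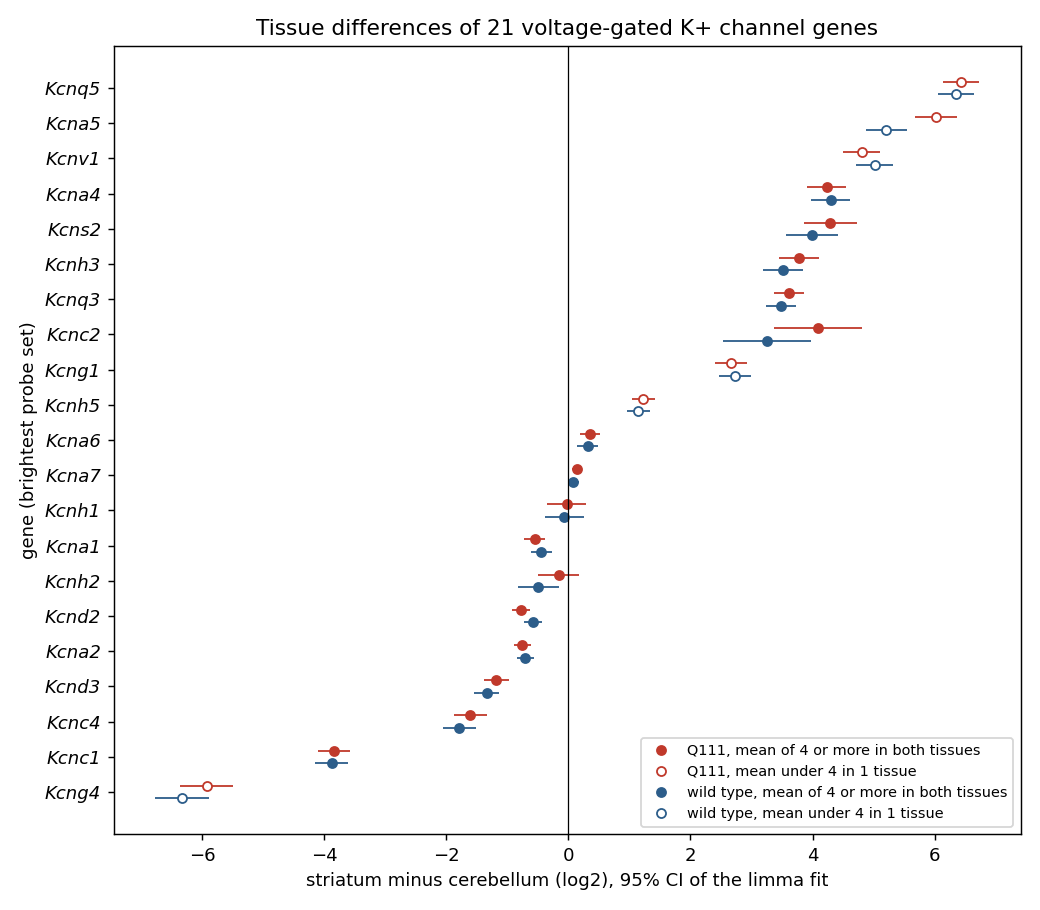
Difference between striatum and cerebellum (x axis, log2) of the 21 kept channel genes (rows), for Q111 mice in red and wild-type mice in blue, with 95% confidence intervals of the limma fit. Open circles mark members below the detection level in 1 tissue, whose differences are set by background; the largest closed-circle differences in wild type are 4.30 for Kcna4 and -3.88 for Kcnc1.

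For 6 members kept in 1 tissue only, passing in 1 tissue alone set the direction, so they are described by bounds and not counted as findings. With values under 4 set to 4, Kcnq5 was at least 59.7-fold higher in wild-type striatum, with 9.90 ± 0.30 in striatum and 3.55 ± 0.23 in cerebellum. Kcnv1 was at least 15.6-fold higher, with 7.96 ± 0.37 in striatum and 2.95 ± 0.03 in cerebellum. Both stood far above the background of the cerebellar arrays. Kcna5 was at least 7.20-fold higher in wild-type striatum, and Kcng1 at least 3.33-fold, with 5.73 ± 0.19 in striatum and 3.00 ± 0.26 in cerebellum. Kcnh5 was at least 1.26-fold higher. Kcng4 ran the other way, with 3.52 ± 0.45 in wild-type striatum and 9.85 ± 0.27 in wild-type cerebellum, and was at least 57.5-fold lower in striatum.

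The 9 genes not detected were Kcna3, Kcnd1, Kcng2, Kcnh7, Kcnh8, Kcnq1, Kcns1, Kcns3 and Kcnv2. Kcns1, just outside the detection level, had 3.46 in Q111 striatum and 3.28 in wild-type striatum, and Kcna3, a subunit known from lymphocytes and microglia, had 2.90 in Q111 striatum and 3.05 in wild-type striatum. A low value on an array bounds the signal of that probe set and does not show that the gene is silent.

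Channel function also depends on auxiliary subunits, and 11 of 16 listed genes were kept: the beta subunits Kcnab1, Kcnab2 and Kcnab3, the Kv4 partners Kcnip1, Kcnip2, Kcnip3, Kcnip4, Dpp6 and Dpp10, and Kcne2 and Amigo1. None passed between genotypes in limma's test in either tissue, against 2.78% of all genes in striatum and 0.446% in cerebellum. An unadjusted p under 0.05 was found for 2 of the 11 genes in striatum and 1 in cerebellum, without a share of all genes to set beside it. The 3 largest striatal differences were -0.47 for Kcne2 (adjusted p = 0.767), 0.41 for Kcnip1 (adjusted p = 0.265) and 0.28 for Dpp10 (adjusted p = 0.169). In cerebellum they were -0.25 for Amigo1 (adjusted p = 0.441), -0.22 for Kcnip4 (adjusted p = 0.514) and 0.19 for Kcnip3 (adjusted p = 0.418). Between tissues of wild-type mice 8 of the 10 kept in both tissues passed (against 72% of all such genes), 2 higher and 6 lower in striatum. The Kv4 partner Kcnip2 averaged 12.27 in wild-type striatum and 3.58 in wild-type cerebellum, below the detection level there, so it is not in that count. In the same mice, Kcnip4 averaged 9.41 in striatum and 11.27 in cerebellum and Dpp6 8.47 in striatum and 10.30 in cerebellum.

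All 15 listed anchoring and clustering partners were kept. None passed between genotypes in limma's test, against the same 2.78% of all genes in striatum and 0.446% in cerebellum. An unadjusted p under 0.05 was found for 5 genes in striatum and 3 in cerebellum, again without a share of all genes to set beside it. In striatum, Dlg4, the scaffold that binds Kv1 tails, averaged 9.40 in Q111 and 8.22 in wild type (difference 1.18, adjusted p = 0.119). It was higher in Q111 within numbers 4 to 6, at 9.90 against 7.16 in wild type, and lower within numbers 1 to 3, at 8.90 against 9.28 in wild type. Cntnap2, the partner that gathers Kv1 channels beside the node, averaged 8.45 in Q111 and 8.87 in wild-type striatum, a difference of -0.42 (adjusted p = 0.102), and 6.07 in Q111 and 6.49 in wild-type cerebellum, a difference of -0.42 (adjusted p = 0.191). Epb41l3 differed by -0.19 in striatum (adjusted p = 0.213). The other 2 of the 3 largest cerebellar differences were -0.73 for Cntnap1 (adjusted p = 0.26) and -0.20 for Adam22 (adjusted p = 0.205).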

How the data were processed

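The authors deposited 1 table of GCRMA values for 24 arrays, per the submitters' processing notes, read here as log2 values from their range, -0.77 to 16.33, since the log base, the GCRMA version and the genome build are not given in the sources used here. RNA was extracted with Trizol and cleaned on a Qiagen column, per the labels' protocols. Of 45101 probe sets, 64 controls were left out, and 20738 with a mean of at least 4 in a tissue were kept.

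All arrays entered 1 model with a mean per group in limma 3.58.1 (R 4.3.3, 20 residual degrees of freedom, prior 3.22). Adjusted p-values come from limma's moderated test, corrected by the Benjamini-Hochberg method across every kept probe set, with 0.05 as the threshold. Scripts were tested on simulated data. Gene symbols come from the platform annotation of 2016, and promoters from RefSeq. Every kept member was named, with array values for members past the threshold, the 6 largest differences in each genotype comparison and the 5 largest tissue differences each way. The members and gene lists were chosen with earlier results of these data known. Precision is limited by the 6 arrays in each group. Deviations of same-number arrays correlated between -0.0043 and 0.183 across wild-type tissues, with 3 of 6 pairs over 0.1, and between -0.0547 and 0.142 across Q111 tissues. There 3 of 6 wild-type and 2 of 6 Q111 striatal arrays correlated best with their own number. Across genotypes the range was -0.409 to -0.0881 in striatum, where every pair was negative, and -0.423 to 0.119 in cerebellum. Replicate numbers were not treated as pairs in the main model, and a replicate block was tried as an alternative. Alternatives were other filters, scalings, variance priors, weights, probe set rules and subsets of arrays.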

Additional observations from a re-analysis of the deposited data

Results flagged for a closer look

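Kcna6 stood apart on 1 array in each of 2 groups. In Q111 striatum replicate 3 had 8.68, with the others between 8.17 and 8.34, and in Q111 cerebellum replicate 1 had 7.76, with the others between 7.95 and 8.06. In wild-type striatum, Kcns2 had 9.05 on replicate 3, with the others between 8.01 and 8.31. Each is farther from its neighbour, relative to the range of its group, than Dixon's 95% critical value allows. Of 92 groups looked at, 3 were flagged, and chance alone flags about 1 in 20.

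The Kcna4 probe set 1422255_at differed between the tissues in its genotype difference, by -0.89 (adjusted p = 0.0424 by limma's interaction test, but 0.0712 with the replicate block and 0.0893 with the number set in the model), while the gene's brighter probe set had -0.07 (adjusted p = 0.95). Cerebellar values of this probe set lie at the detection level.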

How the results depend on the processing

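The number of members called in striatum was 1, and it was 0 with replicate numbers 1 to 3 only, 0 with numbers 4 to 6 only and 0 with only the groups of the comparison in the fit. It was 3 when any probe set of a gene could pass and 2 when a gene's probe sets were averaged; the interaction then counted 1 with any probe set. The other settings tried left these counts within 1.5 times, and leaving out each array in turn gave 1 in striatum, 0 in cerebellum, 0 in the interaction, 19 to 20 between tissues in wild type and 19 in Q111. In those fits the Kcna5 difference was 0.68 to 0.92 with an adjusted p of 0.00448 to 0.0268, again on a spread shared with cerebellar arrays at background. Only 9 of the 21 members had the same sign in both replicate sets in striatum. Examples of signs that reversed against the full fit were Kcnv1 (0.11 in numbers 1 to 3 only) and Kcnc2 (-0.49 in numbers 4 to 6 only), and the cause was not tested. The Kcna4 1422255_at interaction missed the threshold with no filter (0.0525), quantile normalisation (0.0513), the number set in the model (0.0893) and the replicate block (0.0712), and within each number set (0.35 and 0.111). The replicate block left 1 member called in striatum, 0 in cerebellum, 0 in the interaction and 19 between tissues, and called 436, 98 and 5 of all probe sets, against 595, 95 and 18 without it; it changed no other call of a member. Calls over all probe sets in cerebellum were 396 with array weights, 173 with values under 4 set to 4, and 11 and 18 within the replicate sets; in striatum they were 316 with the number set in the model. Cerebellar values of Kcna5, Kcng1 and Kcnv1 lie below the detection level, which limits their comparison there.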
